A study of Oryctolagus cuniculus with 9 samples.

Results

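The response of HA-VSMC cells to β-estradiol at 250 nM was taken from 3 libraries at that concentration and 3 control libraries, which are 6 of the 9 mRNA libraries of the series. Libraries were assigned by the group and replicate number in their column names, and the remaining 3 libraries received 50 nM. HA-VSMC is a cultured vascular smooth muscle line, a name commonly used for a line of human aorta. The labels give the rabbit (Oryctolagus cuniculus) as its species and the deposited FPKM table holds rabbit Ensembl identifiers. The species of the cells was not checked, and its part in the values, including genes listed at 0, was not tested. The study concerns STRA6, the cell-surface receptor for retinol-binding protein, and Wnt/β-catenin signalling in adenomyosis, a disease in which endometrial tissue grows into the uterine muscle.

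Cells of every group grew in serum-containing RPMI medium, and the treated cells were collected after 48 h with the hormone. The estradiol had been dissolved in DMSO, and whether the controls were given DMSO alone is not said. The control samples carry the treatment tag "estrogen" with the concentration "WT", and were taken as untreated from their titles. No label says whether replicates were separate cultures, so the p-values below cover the spread between these libraries, which may be technical. Estradiol is a steroid that acts through the nuclear receptors ERα and ERβ and the membrane receptor GPER1. In muscle and stromal cells it can alter transcription at the receptors' own target genes and through kinase cascades. Among the systems read out here, NF-κB factors are held in the cytoplasm by IκB proteins and, once released, induce cytokine genes together with their own inhibitors. Immediate early genes are switched on by MAP kinase signalling within minutes of a growth signal, and dual-specificity phosphatases switch that signalling off again.

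The 6 libraries held 58616255 to 72274464 deposited count units, about 14654064 to 18068616 fragments at 4 units each. On the first principal component of these libraries, which held 24.3% of the variance, control replicate 2 lay at 34.9 and the other 5 between -20.2 and -2.87. On the second (20.2%), replicate 2 at 250 nM lay at 33.0 and the others between -12.8 and -0.706. Of 12 smooth muscle markers 10 were listed. ACTA2 (1320 FPKM in the control), TPM2 (994 FPKM) and CALD1 (415 FPKM) were abundant, SMTN was at 28.6 FPKM and MYH11 at 4.65 FPKM. MYLK, LMOD1, ACTG2 and MYOCD were below 0.5 FPKM and DES was listed at 0. Summed over a control library, the smooth muscle markers had 2710 to 2870 FPKM. The fibroblast markers, nearly all of it 3 collagens, had 5840 to 6080 FPKM. Among pericyte markers PDGFRB was at 69.2 FPKM in the control, NOTCH3 at 5.19 FPKM and CSPG4 at 2.4 FPKM. ABCC9 and KCNJ8 were below 0.5 FPKM, and RGS5 was listed at 0. Summed endothelial markers stayed below 1 FPKM, as did leukocyte markers. Among epithelial markers KRT14 reached 38.5 FPKM, while EPCAM, KRT19 and ESRP1 were listed at 0.

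At 250 nM, 38 of 12324 tested genes differed from the control, 25 higher and 13 lower (edgeR quasi-likelihood test, Benjamini-Hochberg adjusted p under 0.05). That is 0.308% of the genes tested, 0.203% higher and 0.105% lower. The genes that rose included MAB21L3, the NF-κB inhibitor genes NFKBIA and TNFAIP3, the immediate early gene EGR3, the effectors SERPINB2 and IL6, and the syndecan gene SDC4. Those that fell included FOS, the MAP kinase phosphatase DUSP1, the matricellular gene CYR61 and the endothelin gene EDN1. Changes were small: 25 of the 38 were below 1.5-fold, and the median absolute log2 fold change of the 38 was 0.487. In every one of the 38, the 3 treated libraries did not overlap the 3 controls. The 38 were picked by a test on these same libraries, so this separation adds no support. The share of all tested genes without overlap is not given here.

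The count changed in fits that left out 1 library, which also hold fewer samples. It was 25 (19 higher, 6 lower) without control replicate 2 and 13 (12 higher, 1 lower) without replicate 2 at 250 nM. Without replicate 3 at 250 nM it was 5 (4 higher, 1 lower), and these 5 were MAB21L3, TNFAIP3, NFKBIA, SERPINB2 and DUSP1. Those 5 genes passed in each of the 9 fits that left out 1 library. The count was 21 without control replicate 1 and 15 without control replicate 3. DESeq2 called 126 genes, all 38 among them, and limma on the deposited FPKM values called 4 (MAB21L3, NFKBIA, SERPINB2 and DUSP1).

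**Figure D1:**
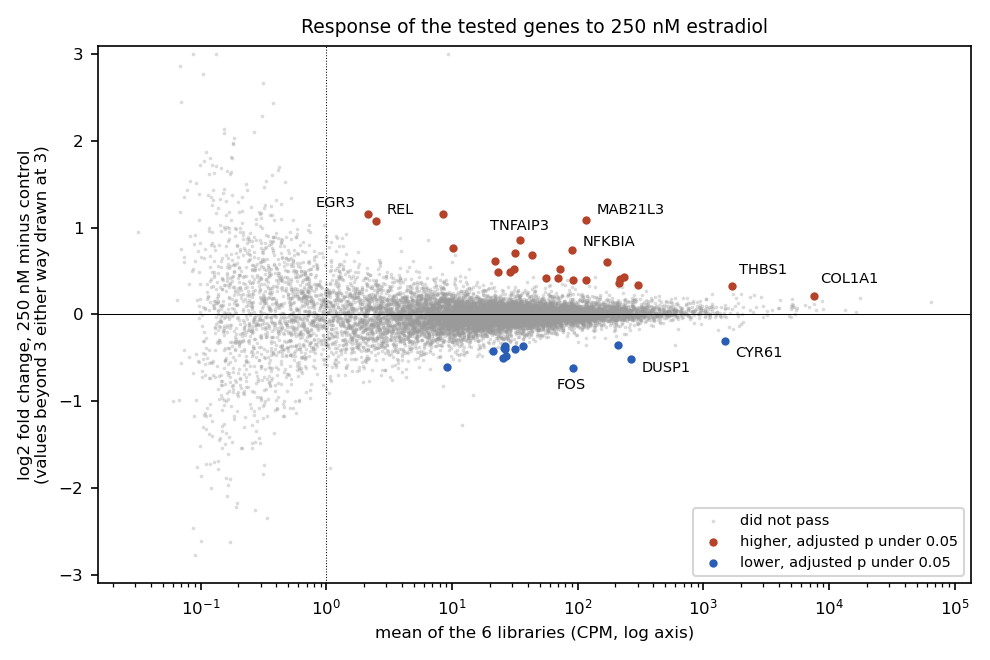
Each point is 1 of 12324 tested genes, with its mean level over the 6 libraries (CPM, log axis) against its log2 fold change at 250 nM. The 25 genes that rose and the 13 that fell are coloured and lie mostly above 5 CPM, while the wide folds at the left belong to genes below 1 CPM (dotted line) that did not pass.

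Across all tested genes the median log2 fold change was -0.00471 and the median absolute value 0.0831. Of 9158 genes with a mean of at least 5 CPM, 31 had an absolute log2 fold change of 0.5 or more, and 14 of these passed. Conversely, 183 genes had an absolute log2 fold change of 1 or more, of which 176 were below 1 CPM and 4 passed. The 4 were EGR3, REL, MAB21L3 and 1 gene with an identifier only. At an unadjusted p under 0.05 there were 1069 genes, or 8.67% of those tested, with 489 higher (3.97%) and 580 lower (4.71%). List counts at that threshold below are to be read beside these shares. Levels below are CPM scaled by TMM factors, listed for replicates 1, 2 and 3. Fold changes are log2 estimates ± SE with edgeR's Benjamini-Hochberg adjusted p.

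The NF-κB list held 23 tested genes, of which 4 rose and none fell, and its median log2 fold change was 0.0117 beside -0.00471 for all genes. Of all tested genes 0.203% rose and 0.105% fell, which is the background for edgeR's counts in this list and those below. DESeq2 called 73 higher and 53 lower of 11689 genes with an adjusted p, the background for its list counts. The lists were chosen with earlier results of these data known, so their counts are descriptive. The 4 were 1 subunit and 3 genes that NF-κB induces and that act back on it. NFKBIA encodes IκBα, which retains NF-κB in the cytoplasm. Its level was 74.0, 63.5 and 66.7 CPM in the controls and 109, 111 and 121 CPM at 250 nM. All treated libraries lay well above all controls, a rise of 0.74 ± 0.07 (adjusted p = 6.48e-05). TNFAIP3 encodes A20, a ubiquitin-editing enzyme that shuts NF-κB signalling off, and stood at 23.3, 27.3 and 23.1 CPM against 39.5, 41.1 and 52.7 CPM. Replicate 3 was the highest of the treated libraries, and the rise was 0.86 ± 0.11 (adjusted p = 0.00393). NFKBIZ encodes IκBζ, a nuclear IκB protein that acts as a cofactor at secondary NF-κB targets such as IL6. It went from 133, 133 and 143 CPM to 195, 203 and 222 CPM (0.60 ± 0.08, adjusted p = 0.00476).

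REL, the gene of the c-Rel subunit, was scarce, with a mean of 1.59 CPM in the controls and 3.36 CPM at 250 nM (1.08 ± 0.20, adjusted p = 0.0288). Its treated libraries ranged from 2.49 to 4.37 CPM, none as low as a control. The other 19 tested members of the list, among them the remaining subunits and the IκB kinases, did not pass. Without replicate 3 at 250 nM the adjusted p of NFKBIZ was 0.0531. REL lost its call without any one of the controls, without replicate 1 or 3 at 250 nM and without 50 nM replicate 1, with an adjusted p of up to 0.200. It also lost it in the fit of the 6 libraries alone and with limma-voom.

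Of 23 tested inflammatory cytokines and effectors, SERPINB2 and IL6 rose and none fell (median 0.15). DESeq2 called 6 higher, and 9 were higher and 0 lower at an unadjusted p under 0.05. SERPINB2, or plasminogen activator inhibitor type 2, was also the single riser in edgeR among 41 matrix proteases and their inhibitors. Of those 41, DESeq2 called 3 higher, and 8 were higher and 0 lower at an unadjusted p under 0.05. SERPINB2 stood at 24.9, 23.8 and 23.5 CPM in the controls and 36.7, 40.3 and 41.6 CPM at 250 nM. Both groups were tight and far apart (0.71 ± 0.07, adjusted p = 0.000263). IL6, a cytokine of the acute phase response, went from 18.4, 15.4 and 18.3 CPM to 23.6, 28.3 and 28.1 CPM (0.62 ± 0.11, adjusted p = 0.0227). Its lowest treated library, replicate 1, was still above the highest control. IL6 lost its call without any one of the controls or without replicate 2 or 3 at 250 nM, with an adjusted p of up to 0.153. ACOD1, the itaconate-producing enzyme of activated macrophages, lay just outside the threshold and is named outside the rule, with its values known. Its levels were 5.08, 4.59 and 4.01 CPM in the controls and 7.51, 7.45 and 9.71 CPM at 250 nM (0.85 ± 0.18, adjusted p = 0.0611).

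**Figure D2:**
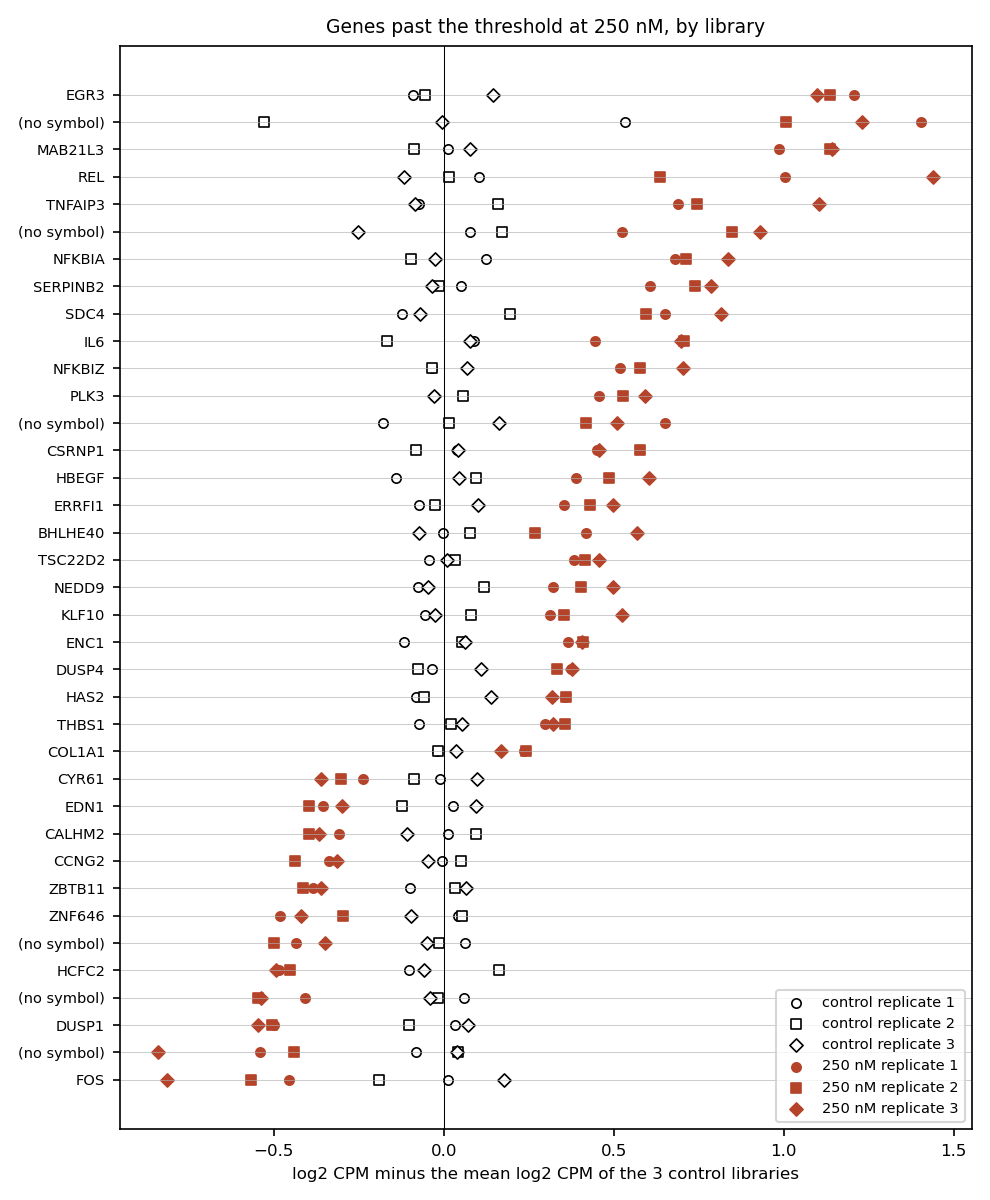
For 37 of the 38 genes that passed, every library is drawn as log2 CPM minus the mean log2 CPM of the 3 controls (open symbols, controls; filled, 250 nM; shape, replicate). Filled and open symbols do not overlap in any row, but the genes were picked by a test on these libraries. The shifts run from above 1 in EGR3, REL and MAB21L3 to about -0.6 in FOS.

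Immediate early genes moved both ways: of 27 tested, 4 rose (PLK3, CSRNP1, EGR3 and KLF10) and 2 fell (FOS and CYR61), with a median of 0.103. DESeq2 called 6 higher and 3 lower, and 9 were higher and 5 lower at an unadjusted p under 0.05. FOS, which pairs with JUN proteins in the AP-1 factor, fell from 111, 96.9 and 125 CPM to 80.6, 74.6 and 62.8 CPM. Treated replicate 3 was the lowest library and the groups did not overlap (-0.61 ± 0.10, adjusted p = 0.0146). EGR3, a zinc finger factor that is also an estrogen receptor target in breast cells, was scarce, with 1.24, 1.27 and 1.46 CPM in the controls. At 250 nM it had 3.08, 2.94 and 2.86 CPM, more than any control in each library (1.16 ± 0.20, adjusted p = 0.0182). EGR1, its close relative, had 275, 299 and 341 CPM in the controls and 236, 243 and 169.9 CPM at 250 nM. EGR1 did not pass (-0.50 ± 0.14, adjusted p = 0.231).

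The stress-responsive kinase gene PLK3 was at 25.1, 26.7 and 25.1 CPM and at 35.2, 37.0 and 38.7 CPM with estradiol (0.53 ± 0.07, adjusted p = 0.00483). CSRNP1, a nuclear protein induced by AXIN1 and growth signals, was at 24.5, 22.6 and 24.6 CPM and 32.6, 35.6 and 32.8 CPM (0.49 ± 0.07). KLF10, a repressor induced by TGF-β and, in bone cells, by estrogen, was at 96.6, 106 and 98.4 CPM and 125, 128 and 144 CPM (0.40 ± 0.07). These were rises of about the same size on the log2 scale. BHLHE40, a transcriptional repressor of the circadian clock and hypoxia lists, was at 59.8, 63.1 and 56.8 CPM and 79.9, 72.0 and 88.7 CPM (0.42 ± 0.07). Treated replicate 2 came closest to the controls. The adjusted p was 0.00635 for CSRNP1, 0.0187 for KLF10 and 0.0204 for BHLHE40.

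Several of these calls were lost in fits that left out 1 library, which also hold fewer samples. PLK3 lost its call without replicate 3 at 250 nM (adjusted p = 0.0534), and CSRNP1 without replicate 2 or 3 (up to 0.0531). FOS and KLF10 lost theirs without control replicate 1 or 3 or without replicate 2 or 3 at 250 nM, with an adjusted p of up to 0.101 and 0.137. BHLHE40 lost its call without control replicate 1 or 3 or without treated replicate 1 or 3 (up to 0.142). EGR3 lost its call without any 1 of the 6 libraries compared (up to 0.0853).

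Among 19 tested feedback regulators of MAP kinase signalling, 2 rose and 1 fell, with a median of 0.141. DESeq2 called 2 higher and 1 lower, and 6 were higher and 1 lower at an unadjusted p under 0.05. DUSP1, a nuclear phosphatase that inactivates ERK, JNK and p38, fell from 322, 293 and 330.5 CPM to 222, 222 and 215 CPM. The treated libraries were nearly equal to each other (-0.52 ± 0.06, adjusted p = 0.000601). DUSP4, which acts on the same kinases, rose from 181, 175 and 199.8 CPM to 239.7, 233 and 240.4 CPM (0.36 ± 0.06, adjusted p = 0.0182). ERRFI1 encodes MIG6, an inhibitor of the EGF receptor, and rose from 189, 196 and 214 CPM to 255, 269 and 281 CPM (0.43 ± 0.06, adjusted p = 0.00975). Of 13 tested EGF family genes, only the ligand gene HBEGF passed, from 17.4, 20.5 and 19.8 CPM to 25.1, 26.9 and 29.1 CPM (0.49 ± 0.10, adjusted p = 0.0393). Of 4 tested genes of the endothelin system, EDN1, which encodes the vasoconstrictor endothelin-1, fell from 238, 214 and 249 CPM to 182, 177 and 189.7 CPM. The highest treated library lay below the lowest control (-0.35 ± 0.06, adjusted p = 0.0205). ERRFI1 lost its call without treated replicate 2 or 3 (adjusted p of up to 0.0749), and HBEGF without any 1 of the 6 libraries (up to 0.256) and with limma-voom. DUSP4 lost its call without control replicate 1 or 2 or any treated library (up to 0.113), and EDN1 without control replicate 1 or 3 or any treated library (up to 0.154).

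Of 50 tested collagens and structural matrix genes, THBS1 and COL1A1 rose and CYR61 fell. The median was 0.103, and 42 had a positive estimate (48.2% of all tested genes did). At an unadjusted p under 0.05, 21 were higher and 1 lower, beside 3.97% and 4.71% of all tested genes. Per length, COL1A1 was the most abundant of the 38 genes, at 1933 FPKM in the control and 2182.9 FPKM at 250 nM. It encodes the α1 chain of type I collagen and had 6971, 6988 and 7243 CPM against 8322, 8351 and 7945 CPM (0.22 ± 0.04, adjusted p = 0.0401). Its partner chain COL1A2, chosen after its values were seen, did not pass (0.19 ± 0.04, adjusted p = 0.0611). THBS1 encodes thrombospondin-1, which binds cells to matrix and activates latent TGF-β. It rose from 1438, 1535 and 1572 CPM to 1859.9, 1939.8 and 1891 CPM (0.32 ± 0.06, adjusted p = 0.0393). CYR61, or CCN1, a matricellular ligand of integrins and a YAP target, fell from 1616, 1531 and 1739.7 CPM to 1380.4, 1320.2 and 1266 CPM (-0.30 ± 0.05, adjusted p = 0.0245). Among 34 YAP/TAZ targets and Hippo components it was the single gene to pass in edgeR, where DESeq2 called 1 higher and 1 lower.

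The summed level of the 9 fibroblast markers in the table, which include COL1A1, COL1A2 and COL3A1, was 5840 to 6080 FPKM in the controls and 6470 to 6680 FPKM at 250 nM. Nearly all of that sum was the 3 collagens, so it restates their values: COL1A1 rose, while COL1A2 (2770 and 3070 FPKM) and COL3A1 (1160 and 1230 FPKM) did not pass. Of the non-collagen markers, DCN had mean levels of 76.2 FPKM in the control and 77 FPKM at 250 nM, FAP 18.6 and 19.4, DPT 6.58 and 6.26 and LUM 5.65 and 5.36, and none passed. No marker of the 9 was listed at 0 in all libraries. In bulk libraries, more cells of a kind and more RNA per cell cannot be told apart. COL1A1 lost its call without any 1 of the 6 libraries or 50 nM replicate 1 (adjusted p of up to 0.239), with a stricter filter, with counts divided by 4 and with limma-voom. THBS1 lost its call without any 1 of the 6 libraries (up to 0.229). CYR61 lost it without control replicate 1 or 3, treated replicate 2 or 3 or 50 nM replicate 1 (up to 0.200).

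SDC4 encodes syndecan-4, a heparan sulfate proteoglycan of focal adhesions. It was the single gene to pass among 27 syndecans, glypicans and integrins (edgeR, and likewise 1 higher with DESeq2). Of those 27, 6 were higher and 1 lower at an unadjusted p under 0.05. SDC4 levels were 30.1, 37.6 and 31.3 CPM in the controls and 51.7, 49.7 and 57.9 CPM at 250 nM (0.69 ± 0.10, adjusted p = 0.00492). HAS2, a hyaluronan synthase, went from 251, 255 and 292 CPM to 339.8, 340.4 and 331 CPM (0.34 ± 0.06, adjusted p = 0.0245). NEDD9, a scaffold protein of focal adhesions, went from 178, 204 and 182 CPM to 234, 248 and 265 CPM (0.41 ± 0.07, adjusted p = 0.0262). In all 3, every treated library lay above every control. Without replicate 3 at 250 nM, the adjusted p of SDC4 was 0.0534. NEDD9 lost its call without control replicate 1 or 3 or treated replicate 2 or 3 (up to 0.200). HAS2 lost it without control replicate 1 or 2, any treated library or 50 nM replicate 1 (up to 0.145).

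The smallest adjusted p of the comparison belonged to MAB21L3, a member of the Mab-21 family. It stood at 75.0, 70.0 and 78.4 CPM in the controls and 147, 163 and 164 CPM at 250 nM, more than any control by a wide margin in each treated library. The rise was 1.09 ± 0.06 (adjusted p = 2.40e-07), with a 95% interval of 0.96 to 1.22. TSC22D2, of the TSC22 domain family, rose from 46.5, 49.0 and 48.2 CPM to 62.6, 63.9 and 65.8 CPM (0.42 ± 0.07, adjusted p = 0.0128). ENC1, a kelch-like protein that binds actin, rose from 72.9, 82.1 and 82.6 CPM to 102, 105 and 105 CPM (0.39 ± 0.06, adjusted p = 0.0104). In both, the treated libraries lay within a few CPM of each other. TSC22D2 lost its call without control replicate 1 or 3 or treated replicate 2 or 3 (up to 0.0911), and ENC1 without treated replicate 2 or 3 (up to 0.0749).

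Among the other genes that fell, CCNG2 encodes cyclin G2, which holds cells back from division, and went from 41.3, 42.9 and 40.1 CPM to 32.8, 30.6 and 33.3 CPM (-0.36 ± 0.07). HCFC2, a relative of the transcriptional coregulator HCFC1, fell from 29.1, 34.9 and 30.0 CPM to 22.3, 22.8 and 22.2 CPM (-0.48 ± 0.09). In both genes the highest treated library lay below the lowest control. CALHM2, which encodes a channel protein, went from 29.7, 31.5 and 27.3 CPM to 23.8, 22.3 and 22.8 CPM (-0.36 ± 0.07). The zinc finger genes ZBTB11 and ZNF646 also fell. ZBTB11 went from 27.4, 30.0 and 30.7 CPM to 22.5, 22 and 22.8 CPM (-0.39 ± 0.07), and ZNF646 from 37.1, 37.4 and 33.7 CPM to 25.8, 29.3 and 26.9 CPM (-0.40 ± 0.08). Their adjusted p-values ran from 0.0245 for ZBTB11 to 0.0471 for CALHM2. Each of these 5 lost its call without control replicate 2 or 3 or any treated library. The call was also lost without control replicate 1 (CCNG2, CALHM2 and ZNF646), 50 nM replicate 1 (CCNG2, CALHM2 and ZNF646) or 50 nM replicate 2 (CALHM2). The adjusted p reached 0.238 for CCNG2, 0.187 for HCFC2, 0.250 for CALHM2, 0.162 for ZBTB11 and 0.231 for ZNF646. CALHM2 also lost its call with limma-voom, with RLE or upper-quartile factors and in the fit of the 6 libraries alone.

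Another 6 genes, 3 higher and 3 lower, are listed by an Ensembl identifier without a symbol. ENSOCUG00000029235.1 went from 7.31, 3.48 and 5.03 CPM to 13.4, 10.2 and 11.9 CPM (1.16 ± 0.19, adjusted p = 0.0146). ENSOCUG00000010753.2 went from 7.93, 8.47 and 6.31 CPM to 10.8, 13.6 and 14.3 CPM (0.77 ± 0.13, adjusted p = 0.0146). The controls of ENSOCUG00000029235.1 varied most among these, with replicate 2 the lowest. ENSOCUG00000023997.1 fell from 10.4, 11.4 and 11.3 CPM to 7.58, 8.12 and 6.15 CPM (-0.60 ± 0.12, adjusted p = 0.0422). ENSOCUG00000025112.1 fell from 31.3, 29.7 and 29.2 CPM to 22.7, 20.6 and 20.7 CPM (-0.50 ± 0.07, adjusted p = 0.00940). Each of these 4 lost its call without replicate 3 at 250 nM. ENSOCUG00000029235.1 also lost it without control replicate 3 or treated replicate 1, and ENSOCUG00000010753.2 without control replicate 3 or treated replicate 2. ENSOCUG00000025112.1 also lost it without treated replicate 2, and ENSOCUG00000023997.1 in every fit without 1 library except that without 50 nM replicate 3. The adjusted p reached 0.0924, 0.107, 0.0749 and 0.250 in that order.

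The study's own gene, STRA6, did not pass. Its levels were 88.1, 89.2 and 79.1 CPM in the controls and 95.1, 96.3 and 99.3 CPM at 250 nM. The estimate was 0.18 ± 0.08 (adjusted p = 0.554), with a 95% interval of 0.01 to 0.35. By edgeR, 0 of 23 tested genes of retinoid uptake, metabolism and receptors passed. At an unadjusted p under 0.05, 1 was higher (STRA6) and 1 lower (RDH11, a retinal reductase, -0.25 ± 0.10), and DESeq2 and limma-voom called 0. CTNNB1, which encodes β-catenin, had 817, 791 and 852 CPM in the controls and 864, 826 and 839 CPM at 250 nM. The 2 groups overlapped (0.04 ± 0.05, adjusted p = 0.899).

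Of 16 tested Wnt/β-catenin target genes 0 passed by edgeR and limma-voom, and DESeq2 called 1 higher. At an unadjusted p under 0.05, 3 were higher and 1 lower. The 3 of lowest p were FOSL1, an AP-1 subunit (0.44 ± 0.11, adjusted p = 0.130), TCF7L2, a partner of β-catenin (0.22 ± 0.09), and PTGS2, the inducible cyclooxygenase (0.23 ± 0.10). Among 45 Wnt ligands, receptors and components 0 passed with edgeR, DESeq2 or limma-voom, with 3 higher and 1 lower at an unadjusted p under 0.05. The lowest p belonged to WLS, which carries Wnt proteins to the surface (0.13 ± 0.05), the receptor gene FZD7 (0.31 ± 0.11) and the repressor gene TCF7L1 (0.21 ± 0.08). Their adjusted p-values were 0.377, 0.394 and 0.417. The list medians were 0.103 for the targets and 0.0143 for the components.

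The estrogen receptor genes had few counts. ESR1, the gene of ERα, had 52 to 159 count units per library over the 6 libraries, ESR2 had 35 to 66, and GPER1 had 0 to 8 and was not tested. ESR1 stood at 2.12, 1.38 and 1.28 CPM and 1.56, 0.899 and 2.22 CPM, with overlapping groups (-0.02 ± 0.35, adjusted p = 0.995). The 95% interval of its log2 fold change was -0.77 to 0.72, which covers changes of either sign. For ESR2 the estimate was 0.11 ± 0.35 (adjusted p = 0.978). PGR, the progesterone receptor gene and a classical estrogen receptor target, had 11.9, 11.6 and 13.04 CPM in the controls and 12, 12.9 and 10.5 CPM at 250 nM. It did not pass (-0.05 ± 0.10, adjusted p = 0.960), and its 95% interval was -0.27 to 0.17.

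Of 25 tested estrogen response genes, EGR3 rose and no other passed, with a median of 0.0129 and, at an unadjusted p under 0.05, 2 higher and 2 lower. Of 24 tested steroid receptors, coregulators and enzymes of estrogen metabolism, 0 passed in edgeR, DESeq2 or limma-voom, and 0 had an unadjusted p under 0.05. The lowest p there belonged to the mineralocorticoid receptor gene NR3C2 (-1.19 ± 0.63) and the estradiol-forming enzyme HSD17B1 (-2.46 ± 1.35), both below 1 CPM. Next came the peroxisomal enzyme HSD17B4 (0.10 ± 0.06).

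Contractile genes did not pass either. Of 33 tested smooth muscle contractile genes, 0 passed with edgeR, DESeq2 or limma-voom, although 26 had a positive estimate, beside 48.2% of all tested genes, and the median was 0.0966. At an unadjusted p under 0.05, 3 were higher and 1 lower. Those of lowest p were PDLIM7, an actin-associated LIM protein (0.21 ± 0.07, adjusted p = 0.354), SYNPO2, an actin-bundling protein (0.21 ± 0.08), and the adhesion protein vinculin, VCL (0.15 ± 0.06).

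**Figure D3:**
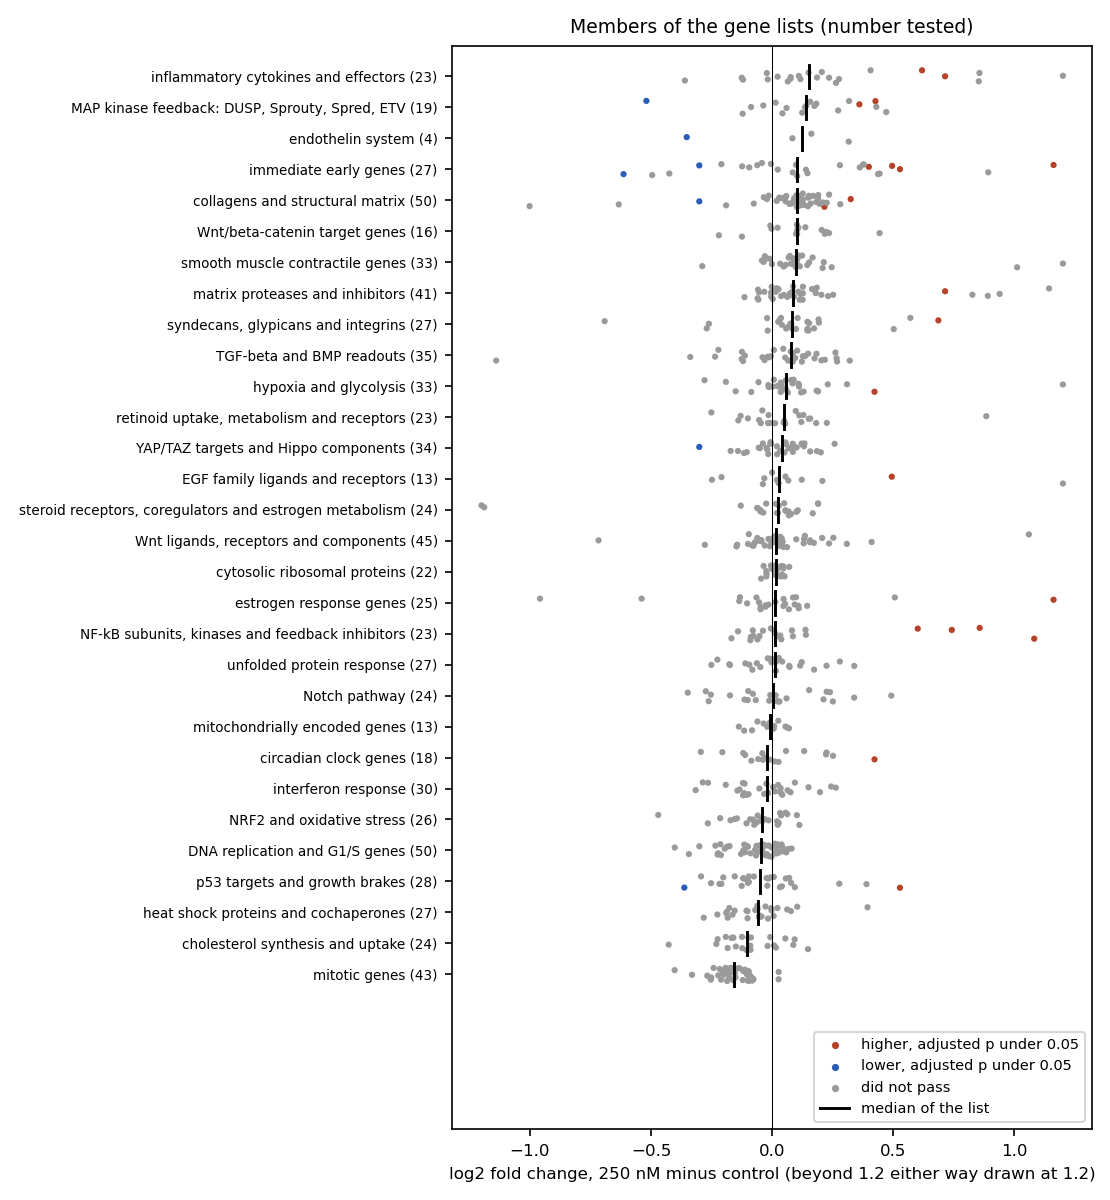
Each point is a tested member of 1 of 30 gene lists, placed by its log2 fold change at 250 nM, and the black bar is the list's median. Members that passed are coloured; the 4 NF-κB genes stand far from a median near 0, and the mitotic points lie nearly all left of 0 with none coloured.

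Of the 30 lists, mitosis had the largest share of members on 1 side of 0. Of 43 tested mitotic genes 41 had a negative estimate, with a median of -0.158 beside -0.00471 for all genes, and 0 passed with edgeR or limma-voom. DESeq2 called 1 lower. At an unadjusted p under 0.05, 17 were lower and 0 higher, beside 4.71% of all genes lower. Relative to the control mean, the list's median log2 CPM was -0.105, -0.161 and -0.204 in the treated libraries. In the controls it was -0.0413, 0.0254 and 0.0292, so the groups did not overlap. This was not particular to mitosis. The medians also stood apart for collagens and structural matrix (controls at most 0.0299, treated at least 0.0945). They did so too for cholesterol genes (controls at least -0.019, treated at most -0.0892) and for many other lists. Among these were inflammatory effectors, immediate early genes, MAP kinase feedback, contractile genes, matrix proteases, TGF-β and BMP readouts and DNA replication. Separate medians were thus a common outcome over the 30 lists, while those of the NF-κB list overlapped. The lowest p belonged to the shugoshin genes SGO1 (-0.40 ± 0.10, adjusted p = 0.130) and SGO2 (-0.33 ± 0.09), which protect centromeric cohesion. Next came CDCA8, borealin of the chromosomal passenger complex (-0.25 ± 0.07, adjusted p = 0.251).

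For DNA replication and G1/S genes the median was -0.0462, 0 of 50 passed in edgeR, DESeq2 or limma-voom, and 4 were lower at an unadjusted p under 0.05. Their lowest p-values belonged to the origin recognition gene ORC1 (-0.30 ± 0.10), the repressor gene E2F7 (-0.34 ± 0.12) and the cyclin gene CCNE1 (-0.23 ± 0.09). In the list of p53 targets and growth brakes, with 28 tested, PLK3 rose and CCNG2 fell. DESeq2 called 2 higher and 1 lower there, and 3 were higher and 7 lower at an unadjusted p under 0.05.

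Of 24 tested genes of cholesterol synthesis and uptake 0 passed with edgeR or limma-voom, and DESeq2 called 1 lower. The median was -0.102, and 6 were lower and 1 higher at an unadjusted p under 0.05, beside 4.71% and 3.97% of all tested genes. HMGCS1, which makes the precursor HMG-CoA, had 255, 261 and 272 CPM in the controls and 228, 225 and 221 CPM at 250 nM (-0.23 ± 0.05, adjusted p = 0.110). INSIG1, the sterol-sensing brake on SREBP (-0.43 ± 0.11), and the epoxidase SQLE (-0.23 ± 0.07) followed. Heat shock proteins had a median of -0.06 over 27 genes, with 0 passing in edgeR or limma-voom and 1 lower in DESeq2. At an unadjusted p under 0.05, 6 were lower, beside 4.71% of all tested genes. The lowest p there was that of the constitutive chaperone HSPA8 (-0.16 ± 0.04, adjusted p = 0.193).

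In the TGF-β and BMP list, 0 of 35 passed with edgeR or limma-voom and DESeq2 called 1 higher. At an unadjusted p under 0.05, 6 were higher and 3 lower, beside 3.97% and 4.71% of all tested genes. The inhibitory SMAD7 had an estimate of -0.34 ± 0.09 (adjusted p = 0.163) and the signal transducer SMAD3 one of 0.32 ± 0.09 (adjusted p = 0.176). The Notch pathway had 0 of 24 past the threshold in edgeR, DESeq2 and limma-voom, with 3 higher and 3 lower at an unadjusted p under 0.05, led by the ligand gene JAG1 (-0.35 ± 0.09, adjusted p = 0.173).

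The unfolded protein response list had 0 of 27 with edgeR or limma-voom, 1 higher with DESeq2, and 3 each way at an unadjusted p under 0.05, led by ATF3 (0.28 ± 0.07). For NRF2 and oxidative stress genes, 0 of 26 passed in edgeR, DESeq2 and limma-voom and 3 were lower at an unadjusted p under 0.05, led by GCLM, of glutathione synthesis (-0.47 ± 0.13). For interferon response genes, 0 of 30 passed in these tools, with 1 each way at an unadjusted p under 0.05, led by TRIM25 (-0.32 ± 0.11). Cytosolic ribosomal protein genes (22) and mitochondrially encoded genes (13) had 0 past the threshold in edgeR, DESeq2 and limma-voom, and 0 at an unadjusted p under 0.05. In control replicate 2, which stands apart on the first component, their list medians were -0.223 and 0.176 relative to the control mean.

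At 50 nM, against the same 3 control libraries, 401 genes (3.25%) passed. Because the controls are shared, the 2 comparisons are not independent, and the responses are set side by side and tested by the direct contrast of 250 nM with 50 nM. That contrast found 40 genes (0.325%), 23 higher and 17 lower at 250 nM. It found 24 without replicate 1 and 21 without replicate 2 at 250 nM, 92 with DESeq2 and 23 on log2(FPKM + 1). In 37 of the 40 the 250 nM level was nearer to the control than the 50 nM level, by absolute log2 fold change. The 40 were picked by this contrast, and 34 of them also passed at 50 nM against control. The share of all tested genes with the smaller change at 250 nM is not given here, so these counts are descriptive. In 15 of the 40 the estimates against control had opposite signs at the 2 concentrations. Of the 38 genes that passed at 250 nM, 34 also passed at 50 nM, 25 had the larger absolute change at 50 nM, and 11 differed between the concentrations.

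Of the 40 genes that passed in this contrast, EGR1 had the largest difference. Its 50 nM libraries had 47.8, 45.9 and 30.9 CPM, below every control and every 250 nM library, and 250 nM exceeded 50 nM by 2.38 ± 0.15 (adjusted p = 1.40e-06). FOS stood at 42.0, 35.2 and 36.9 CPM with 50 nM, and the difference was 0.93 ± 0.10 (adjusted p = 0.000366). TNFAIP3 went the other way, with 91.0, 88.6 and 72.2 CPM at 50 nM and a difference of -0.92 ± 0.11 (adjusted p = 0.000836). In all 3 the 250 nM libraries lay between the control and the 50 nM libraries. NFKBIA was lower at 250 nM than at 50 nM by -0.54 ± 0.07, SERPINB2 by -0.51 ± 0.07, BHLHE40 by -0.44 ± 0.07 and KLF10 by -0.39 ± 0.07 on the signed log2 scale. CYR61 and DUSP1 were higher at 250 nM by 0.43 ± 0.05 and 0.35 ± 0.06. Their adjusted p-values in this contrast ran from 0.000852 (NFKBIA) to 0.0134 (KLF10).

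ERRFI1 was the exception among the 11, being farther from the control at 250 nM. Its 50 nM libraries had 205, 197 and 179.8 CPM, overlapping the control range (-0.04 ± 0.06 against control), and the contrast gave 0.47 ± 0.06 (adjusted p = 0.00228). Other genes of MAP kinase feedback, chosen after their values were seen, passed in the contrast without passing at 250 nM against control. DUSP6, an ERK phosphatase, was -0.04 ± 0.09 from the control at 250 nM and -0.84 ± 0.10 at 50 nM (contrast 0.80 ± 0.10, adjusted p = 0.000836). SPRY2, a brake on receptor tyrosine kinases, was 0.16 ± 0.11 and -0.70 ± 0.12 (contrast 0.86 ± 0.12, adjusted p = 0.00209). For SMAD7 the estimates were -0.34 ± 0.09 at 250 nM and 0.31 ± 0.09 at 50 nM (contrast -0.65 ± 0.09, adjusted p = 0.00180). For PTGS2 they were 0.23 ± 0.10 and -0.37 ± 0.10 (contrast 0.61 ± 0.10, adjusted p = 0.0103).

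For MAB21L3 the contrast between concentrations did not pass (-0.21 ± 0.06, adjusted p = 0.296), with a 95% interval of -0.34 to -0.08. NFKBIZ (0.00 ± 0.08) and COL1A1 (0.03 ± 0.04) had estimates near 0, with intervals of -0.17 to 0.18 and -0.05 to 0.12. IL6 passed at 250 nM and not at 50 nM (0.38 ± 0.11, adjusted p = 0.0796), but the contrast did not pass (0.24 ± 0.11, adjusted p = 0.846), so the 2 responses were not shown to differ.

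**Figure D4:**
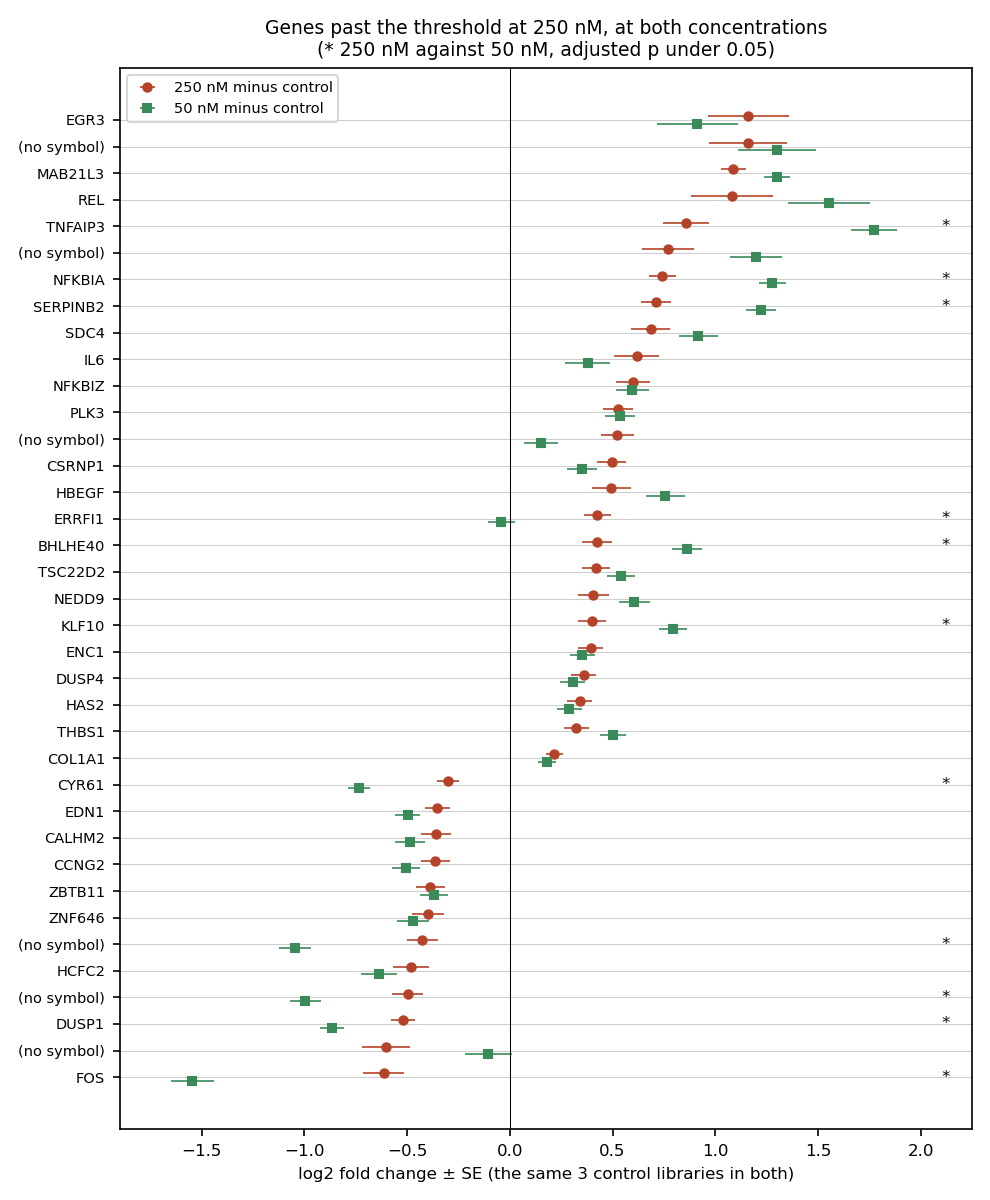
Log2 fold change ± SE at 250 nM (circles) and 50 nM (squares) for 37 of the 38 genes that passed at 250 nM, both against the same 3 controls. Stars mark the 11 genes for which the direct contrast passed; in 10 of them the square lies farther from 0, and in ERRFI1 the circle does.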

How the data were processed

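mRNA of 9 libraries of HA-VSMC cells was sequenced, 3 controls, 3 at 50 nM and 3 at 250 nM β-estradiol, and 6 of them make the comparison reported here. The values deposited by the authors are estimated counts, with FPKM values in a separate table. Trimming with Trim Galore, alignment with TopHat2 2.1.1 and the programs Cufflinks and Cuffdiff are named by the submitters' processing notes. Genome build, annotation and use of strand: not given in the sources used here. Labels name a small RNA kit for these libraries. The deposited counts are whole, so none was rounded. Of the values from 1 to 12, 42.2% were 4, 8 or 12, and about 4 units were taken as 1 fragment. Overlapping, antisense and near-identical genes could share counts.

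Of 19291 genes, 12324 passed edgeR's filterByExpr (minimum count 10), 9800 of them with a symbol. The members of the comparison and the 30 gene lists (1099 symbols, 784 tested) were chosen with earlier results of these data known. Symbols were matched to RefSeq mOryCun1.1 names, 12500 of 13318, and no coordinates were used. All 9 libraries entered 1 quasi-likelihood fit (edgeR 4.0.16, R 4.3.3, TMM factors, group means). Contrasts were 250 nM minus control, 250 nM minus 50 nM and 50 nM minus control, each adjusted by Benjamini-Hochberg over all 12324 genes at 0.05. The common biological coefficient of variation was 8.92%. Libraries of 1 group differed by more than counting noise (chi-square over degrees of freedom 3.08 to 11.6), so none was merged.

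Symbol genes past the threshold at 250 nM are named, 1 excepted that is not reported here, with all library values from a mean of 5 CPM. Named also are up to 2 identifiers each way, STRA6, ESR1, ESR2, GPER1, PGR, CTNNB1 and EGR1, and up to 3 genes of lowest p from lists with none past the threshold. Alternatives were DESeq2 1.42.0, limma-voom (limma 3.58.1), RLE and upper-quartile factors, no filter, a stricter filter (5 CPM in 3 libraries), the 6 libraries alone, a replicate block, counts divided by 4, limma on log2(FPKM + 1) and log2(FPKM + 0.1), and leaving out each library. On simulated data with 200 of 12324 genes changed, the 250 nM comparison recovered 29.9%, 80.6% and 83.3% of genes changed 1.25-fold, 1.5-fold and 2-fold, and 3 of 132 calls were false. The simulated counts were drawn independently from the kind of model that was then fitted, without clumping at 4 units or deviant libraries. These rates may therefore not hold for the deposited counts. No sequences are shown, since none were used here.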

Additional observations from a re-analysis of the deposited data

How the results depend on the processing

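At 250 nM, DESeq2 called 126 genes (73 higher, 53 lower) where edgeR called 38 (25 higher, 13 lower). Without a filter the lower genes numbered 22. Limma on log2(FPKM + 1), on log2(FPKM + 0.1) and on log2(FPKM + 1) without a filter called 4 genes each (3 higher, 1 lower). Leaving out 1 library gave 5 to 56 genes, 4 to 37 higher and 1 to 19 lower; the fewest came without replicate 3 at 250 nM and the most without 50 nM replicate 3. The contrast of 250 nM with 50 nM gave 92 genes with DESeq2 (44 higher, 48 lower), 23 on log2(FPKM + 1) (15 higher, 8 lower), and 28 lower without a filter. Leaving out 1 library gave 21 to 50 genes there, 12 to 26 higher and 9 to 26 lower. The cause of these shifts was not tested, beyond the smaller number of samples in the fits without a library. Limma-voom, RLE and upper-quartile factors, the stricter filter, the 6 libraries alone and counts divided by 4 gave 36 to 52 genes at 250 nM.

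Over 796 pairs of a called gene and an alternative, 537 kept the call and the sign, 259 kept the sign and lost the call, and 0 changed sign. MAB21L3, NFKBIA, SERPINB2 and DUSP1 kept the call in every alternative run. Same-numbered libraries of the control and 250 nM groups deviated from their group means with correlations of 0.0177, 0.0282 and -0.0319. Those of differently numbered libraries ran from -0.0795 to 0.0684. With 3 libraries a group this check cannot exclude a shared culture or batch, and the main fit used no pairing. With the replicate block 43 genes passed (28 higher, 15 lower), 37 of them among the 38; the gene that lost its call there was CALHM2.

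Among genes that did not pass, some estimates changed sign. Leaving out 1 library moved ESR1 from -0.02 to between -0.37 and 0.25, positive without control replicate 1 (0.24) or replicate 2 at 250 nM. ESR2 moved from 0.11 to between -0.14 and 0.31, negative without control replicate 2 (-0.04) or replicate 1 at 250 nM. PGR moved from -0.05 to between -0.12 and 0.030, positive without control replicate 3 (0.0025) or replicate 3 at 250 nM. CTNNB1 went from 0.04 to -1.01e-04, -9.99e-05 and -1.01e-04 in the 3 fits to FPKM values, and DUSP6 ranged from -0.11 to 0.0094, positive without control replicate 3. ESR1 had at most 159 count units in a library and ESR2 at most 66; how far counting error and how far the spread between libraries sets their intervals was not tested. In the simulation, which lacked the clumping of the deposited counts, 29.9% of genes with the smallest fold were recovered.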

Other observations

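CERKL, a ceramide kinase-like gene linked to retinal disease, had 51.6 CPM in replicate 3 at 250 nM and at most 1.41 CPM in the other 8 libraries. It did not pass (edgeR adjusted p = 0.154). RAB3B, a GTPase of regulated secretion, had 0 counts in all 3 controls and 17, 10 and 24 count units at 250 nM (edgeR adjusted p = 0.130). LGI4, a secreted protein of peripheral nerve myelination, had 0 counts in the controls and 12, 12 and 8 units at 250 nM (edgeR adjusted p = 0.110). At 4 units per fragment these are few fragments, and no fold is given. All were chosen after their values were seen.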
